A study of Homo sapiens with 18 samples.

Results

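The guide difference in the IL-1β response is an interaction: the log2 change with IL-1β in ERH-targeted cells (sgERH) minus the log2 change with IL-1β in control cells (sgAAVS1). It was taken from 10 of the 18 libraries of the series, as 3 sgERH IL-1β, 3 sgERH NT (non-treated), 2 sgAAVS1 IL-1β (replicates 1 and 2) and 2 sgAAVS1 NT (replicates 2 and 3) libraries. The remaining library of each sgAAVS1 group had been left out by the study after a principal component analysis and did not enter the comparison. A negative value means a smaller IL-1β response in sgERH than in sgAAVS1. The study used IL-1β as a second stimulus next to IFNγ, to ask whether cytokine responses in general or the IFNγ response in particular depended on ERH.

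All cells were RKO-iCas9, a derivative of the human colon carcinoma line RKO in which doxycycline switches on Cas9. They carried a constitutive guide RNA against ERH, which encodes a small conserved nuclear protein that associates with RNA-processing complexes, or against the AAVS1 safe-harbour site, where an edit is not known to disturb the cell. Both guides received 100 ng/mL doxycycline for 5 days, so the sgAAVS1 cells also made Cas9 and were also cut. Cells were then given 10 ng/mL IL-1β or were non-treated for 4 h. Transduced cells had been sorted and were used as pools rather than as single clones, so a library averages over cells with different edits. RNA was read by 3′ mRNA sequencing (QuantSeq), which counts 1 tag next to the poly(A) tail of each sampled transcript, so that a gene's value does not depend on transcript length and says nothing of splicing. The labels call the libraries biological replicates without stating that each was a culture of its own, and the p-values cover only the spread between these libraries, which may be technical.

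IL-1β binds its receptor IL1R1 and, through the adaptor MYD88, IRAK kinases, the ubiquitin ligase TRAF6 and the kinase TAK1 (MAP3K7), activates the IκB kinases. These phosphorylate IκBα (the product of NFKBIA), which is degraded and releases NF-κB dimers to the nucleus, where they bind κB sites and switch on chemokines, survival genes and, as negative feedback, NFKBIA itself. Parallel MAP kinases act on AP-1 factors such as FOS and stabilise many of the resulting short-lived mRNAs.

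The 10 libraries held 5157303 to 5986338 counts, of which 20.8% to 23.2% were multimapping, and 11842 to 12694 genes had at least 10 reads. Of the 13 epithelial markers, 7 had fewer than 10 reads over the 10 libraries: CDH1 (E-cadherin) had 1 read in all, while KRT18, KRT8, EPCAM and the intestinal factor CDX2 were read in every library. The summed epithelial markers came to 101 to 126 CPM (read counts scaled to library size) in sgERH IL-1β, 110 to 114 in sgERH NT, 127 to 141 in sgAAVS1 IL-1β and 149 to 158 in sgAAVS1 NT libraries. Single members differed from the sum. KRT18 had 317, 333 and 344 reads in sgERH NT against 495 and 626 in sgAAVS1 NT libraries. EPCAM had 117, 79 and 93 reads in sgERH NT against 23 and 39 in sgAAVS1 NT libraries. Of 15 leukocyte markers 10 had no read, PTPRC among them, 13 had fewer than 10 reads over the 10 libraries, and CD68 alone passed the filter on low counts. Their sum, carried almost wholly by CD68, was nevertheless above the epithelial one. It came to 420 to 449 CPM in sgERH IL-1β, 458 to 487 in sgERH NT, 425 in sgAAVS1 IL-1β and 425 to 469 in sgAAVS1 NT libraries. Of 13 fibroblast and endothelial markers 9 had no read, COL1A1 among them, and the sum was at most 2.86 CPM in any sgERH library and 5.13 to 8.70 CPM in the sgAAVS1 libraries. One library stood apart: sgERH IL-1β replicate 2 deviated from its replicates with an SD of 0.501 on the log2 scale, against 0.239 to 0.372 in the other 9 libraries. Across 10453 genes, which are not independent replicates, its deviations correlated at 0.716 and 0.792 with those of 2 libraries that the study had left out, sgAAVS1 NT replicate 1 and sgERH IFNγ replicate 2. The study had kept this library. Several counts, medians and single-gene values are therefore also given without it, but not every result.

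The letters that NF-κB dimers can recognise were looked for in the promoters of the genes that rose with IL-1β (defined below). The windows are RefSeq promoters on GRCh38.p14, from 250 bases before to 50 bases after the first listed start of each gene, and 46 of the 65 genes had one. The motif GGNNTTTCC on either strand was found in 14 of the 46 (30.4%), against 6.71% of the 9138 tested genes with a window and 6.26% of all 27305 symbols of the table. The AP-1 motif TGANTCA was found in 1 of the 46 (2.17%), against 4.29% of the tested genes and 7.76% of all. A match is a description of the letters only. The 4 windows below are shown because they belong to the feedback inhibitor NFKBIA, which DESeq2 called (below), and to the chemokines CXCL1, CXCL8 and CCL20, which had the largest pooled responses among genes with a match. Capitals mark the κB match on the strand printed. They lie at chr14:35404700-35404999 (minus strand) for NFKBIA, chr4:73869143-73869442 (plus) for CXCL1, chr4:73740319-73740618 (plus) for CXCL8 and chr2:227813592-227813891 (plus) for CCL20.
NFKBIA: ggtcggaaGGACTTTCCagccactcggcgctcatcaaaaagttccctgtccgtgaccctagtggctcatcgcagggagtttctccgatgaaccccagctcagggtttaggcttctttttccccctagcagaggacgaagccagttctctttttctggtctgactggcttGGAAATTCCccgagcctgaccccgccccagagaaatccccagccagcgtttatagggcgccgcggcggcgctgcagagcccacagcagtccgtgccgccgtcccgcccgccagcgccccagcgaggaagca
CXCL1: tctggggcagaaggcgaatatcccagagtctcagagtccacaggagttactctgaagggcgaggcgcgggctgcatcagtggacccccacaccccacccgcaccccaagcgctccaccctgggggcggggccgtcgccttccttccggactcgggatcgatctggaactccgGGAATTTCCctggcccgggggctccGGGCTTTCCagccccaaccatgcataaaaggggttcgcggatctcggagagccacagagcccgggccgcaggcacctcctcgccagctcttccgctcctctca
CXCL8: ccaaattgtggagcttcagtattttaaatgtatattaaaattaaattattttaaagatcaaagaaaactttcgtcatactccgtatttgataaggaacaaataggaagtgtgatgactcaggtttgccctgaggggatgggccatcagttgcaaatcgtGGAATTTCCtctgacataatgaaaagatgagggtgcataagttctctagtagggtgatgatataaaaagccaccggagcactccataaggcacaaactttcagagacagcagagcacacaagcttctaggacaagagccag
CCL20: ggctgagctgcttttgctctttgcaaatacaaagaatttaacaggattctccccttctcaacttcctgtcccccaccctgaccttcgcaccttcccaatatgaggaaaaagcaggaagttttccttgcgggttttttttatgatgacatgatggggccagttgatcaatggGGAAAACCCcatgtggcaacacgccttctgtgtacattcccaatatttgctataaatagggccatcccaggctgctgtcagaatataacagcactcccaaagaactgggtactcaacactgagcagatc

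The first base of a match lay 242 and 81 bases before the start of NFKBIA, 78 and 53 bases before that of CXCL1, 91 bases before that of CXCL8 and 79 bases before that of CCL20. The guide difference was below 0 for the 13 genes with a κB match and reads in every group (median -1.01, leaving out CCL20) and for 28 of the 32 genes with a window and no match (median -1.01), so the values with and without the motif lay close together.

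No gene passed the test of the guide difference across all genes. The test was edgeR's quasi-likelihood test on 13370 genes, with a call at an adjusted p of at most 0.05 and a difference of at least 1 on the log2 scale, and it called 0 genes (0%), with 0.204 as the smallest adjusted p. At an unadjusted p under 0.05 there were 1487 genes, 710 negative (5.31%) and 777 positive (5.81%), and 6557 genes (49.0%) lay below 0. The median over all genes was 0.01 and the median standard error 0.318. DESeq2 called 2 genes, NFKBIA (-1.38, adjusted p = 0.00648) and CPVL (-2.40, adjusted p = 0.0266).

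Leaving out the library that stood apart changed this count. Without sgERH IL-1β replicate 2, edgeR called 5 genes, all negative: NFKBIA (-1.13 ± 0.15 (SE), adjusted p = 2.05e-05), the adhesion molecule ICAM1 (-1.03 ± 0.16, adjusted p = 0.00105), the small nucleolar RNA SNORD36B (-1.16 ± 0.24, adjusted p = 0.0364), the zinc finger gene ZNF696 (-1.28 ± 0.27, adjusted p = 0.0476) and CPVL, a carboxypeptidase-like gene (-2.14 ± 0.47, adjusted p = 0.0478). Without sgERH IL-1β replicate 3, and so with the library that stood apart as 1 of 2, 140 genes were called, of which 124 were negative and 14 were among the 65 genes below.

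The genes that respond to IL-1β were taken from a response pooled over both guides, with weights of 0.6 for sgERH and 0.4 for sgAAVS1 that follow the numbers of libraries. These weights would favour neither guide only at an equal spread: for 56 of the 62 chosen genes with reads in every group, the weighted variance was larger for sgAAVS1, so the choice leaned towards genes with a large sgAAVS1 response. In this pooled response 65 genes rose (0.486% of the genes tested) and 0 fell (932 genes were lower at an unadjusted p under 0.05, DESeq2 also called 0 lower, and the other alternatives called 0 to 4 lower, with 4 for uniquely mapped reads). Of the 65, 25 belonged to 12 lists of IL-1 and NF-κB genes and 40 to none. On the log2 scale their median response was 1.23 in sgERH and 2.10 in sgAAVS1. Tested within 1 guide, 23 of the 65 rose in sgERH (0.269% of all genes) and 35 in sgAAVS1 (0.628% of all genes).

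**Figure D1:**
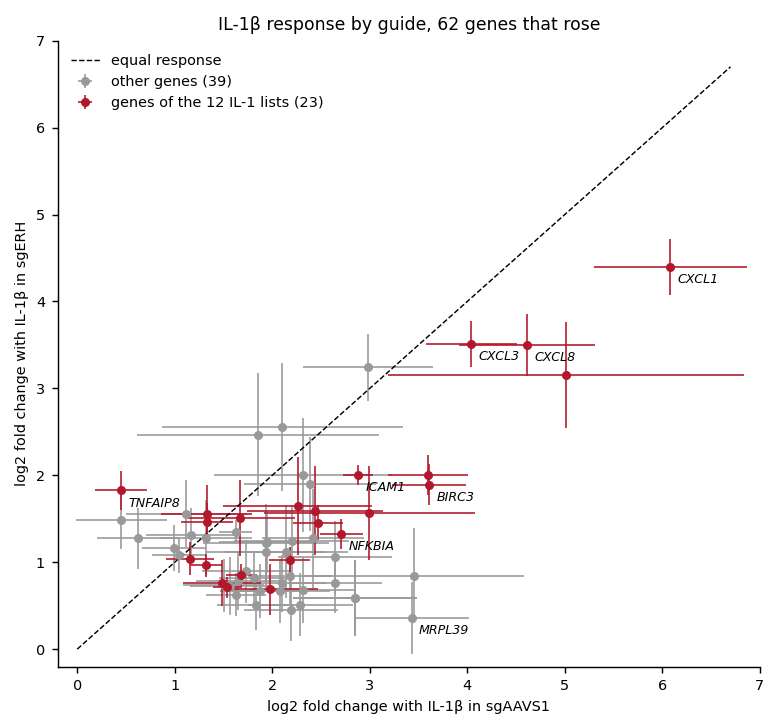
IL-1β response of 62 of the 65 genes, as log2 fold change in sgAAVS1 (x axis) and in sgERH (y axis), with bars of 1 SE and a dashed line of equal response; filled colours separate the 23 genes of the IL-1 lists from 39 others, and 3 genes with a group at 0 reads are left out. Most points lie below the line, with TNFAIP8 the farthest above it among the list genes.

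The guide difference was below 0 for 52 of the 65 genes (80.0%), against 49.0% of all genes, and its median was -0.87, against 0.01 over all genes. Of the 62 with reads in every group, 50 lay below 0 (median -0.86). At an unadjusted p under 0.05, 26 of the 65 were negative (5.31% of all genes) and 1, TNFAIP8, was positive (5.81% of all genes). The 25 list genes (median -0.85, 21 below 0) and the 40 others (median -0.91, 31 below 0) had like values. Without sgERH IL-1β replicate 2, 64 of the 65 genes had a value. Their median was -0.77, with 52 below 0 and again 26 negative and 1 positive at an unadjusted p under 0.05. The pooled response and the guide difference were read in the same 10 libraries, and the way the genes were chosen mattered. Over the 84 genes that rose in sgAAVS1 the median guide difference was -1.18 (81 below 0), and over the 36 genes that rose in sgERH it was 0.24 (13 below 0); choosing genes in 1 guide favours the genes with the larger response in that guide. Over 53 genes chosen on a response weighted per gene by the inverse of each guide's variance, an alternative added after seeing the data, the median was -0.83 and 40 (75.5%) lay below 0; 52 of them were among the 65. The 95% intervals were wide, with a median half-width of 1.19 on the log2 scale. Of the 62 genes with an interval, 24 had one wholly below 0 and 1 wholly above, 11 had a lower bound above -1, and 27 had an interval that held both 0 and -1.

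Feedback inhibitors held NFKBIA and ZC3H12A, which rose in both guides with a larger response in sgAAVS1 that missed the adjusted test, and TNFAIP8, whose response was larger in sgERH. NFKBIA (ENSG00000100906.12, chromosome 14, 35401079 to 35404749, minus strand, GENCODE 44 on GRCh38) encodes IκBα, which retains NF-κB in the cytoplasm. It had 263, 138 and 262 CPM in sgERH IL-1β libraries and 90.0, 89.8 and 85.0 CPM in sgERH NT libraries, against 236 and 247 CPM in sgAAVS1 IL-1β libraries and 36.3 and 37.5 CPM in sgAAVS1 NT libraries. All sgERH NT libraries lay above both sgAAVS1 NT libraries, while under IL-1β the guides overlapped, with replicate 2 of sgERH as the lowest library. NFKBIA rose in both guides, by 1.33 ± 0.17 (log2 fold change ± SE) in sgERH and 2.71 ± 0.22 in sgAAVS1, and the guide difference was -1.38 ± 0.28 (edgeR unadjusted p = 1.20e-04, adjusted p = 0.204). ZC3H12A encodes Regnase-1, an endoribonuclease that degrades inflammatory mRNAs. It had 69.9, 51.7 and 54.9 CPM in sgERH IL-1β and 25.4, 29.6 and 31.5 CPM in sgERH NT libraries, against 46.2 and 45.5 CPM in sgAAVS1 IL-1β and 9.45 and 10.7 CPM in sgAAVS1 NT libraries. In both treatments every sgERH library was above every sgAAVS1 library, by a wider margin in NT. Its guide difference was -1.15 ± 0.26 (edgeR unadjusted p = 1.01e-04, adjusted p = 0.204).

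TNFAIP8, a regulator of cell death that was placed in the feedback list, went the other way. It had 22.1, 23.6 and 22.1 CPM in sgERH IL-1β and 7.48, 6.85 and 4.76 CPM in sgERH NT libraries, against 19.6 and 15.8 CPM in sgAAVS1 IL-1β and 10.7 and 15.1 CPM in sgAAVS1 NT libraries. The sgERH libraries were the higher ones under IL-1β and the lower ones in NT, without overlap in either. TNFAIP8 rose in sgERH (1.83 ± 0.23), and its response in sgAAVS1 was 0.45 ± 0.26. The guide difference was 1.38 ± 0.35 (edgeR adjusted p = 0.268) and stayed at 1.35 without sgERH IL-1β replicate 2. The deubiquitinase gene TNFAIP3 (A20) and the mRNA decay gene ZFP36 (tristetraprolin) rose in the pooled response at low counts, at most 6.56 CPM in any library, and their guide differences of -0.85 ± 0.87 and -0.16 ± 0.71 were small beside their errors. Among the 18 tested members of the feedback list 11 lay below 0 (49.0% of all genes). At an unadjusted p under 0.05, 2 members were negative (5.31% of all genes) and 2 positive (5.81% of all genes). The second positive one was NFKBIE (0.62 ± 0.24), which encodes IκBε. The list's median was -0.04, against 0.01 over all genes.

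**Figure D2:**
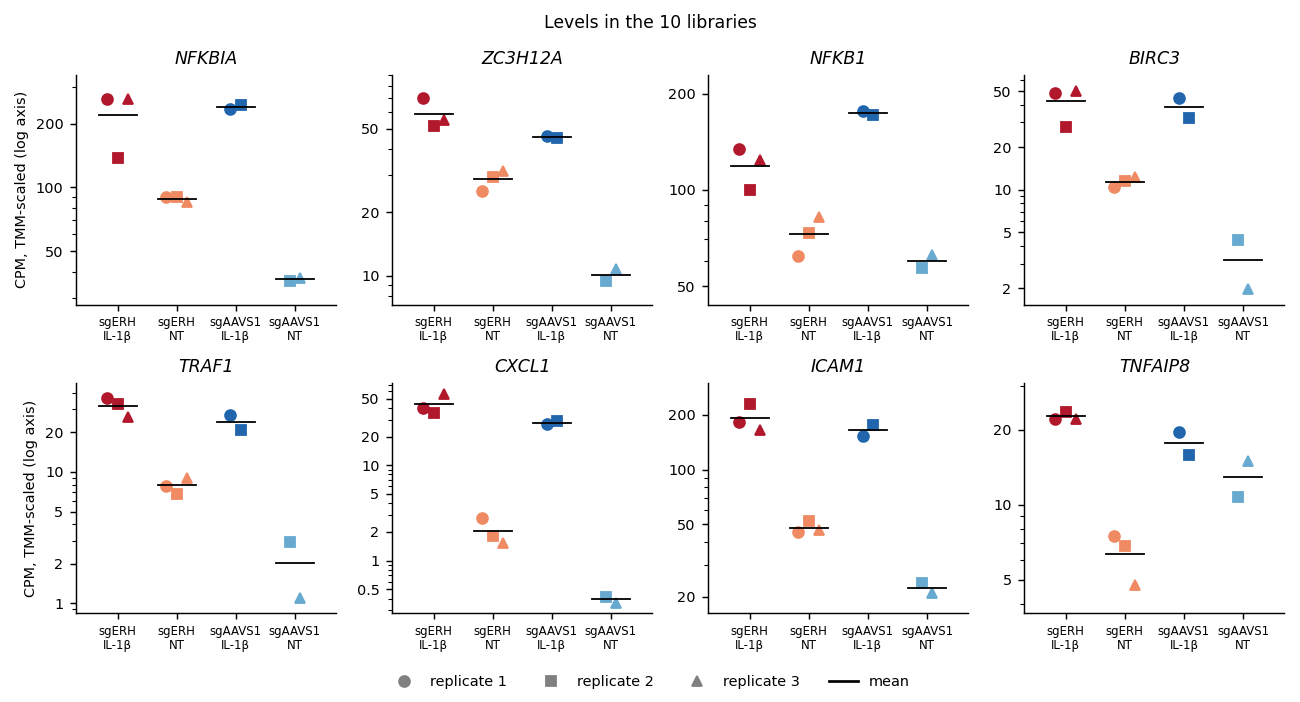
CPM (log axis) of NFKBIA, ZC3H12A, NFKB1, BIRC3, TRAF1, CXCL1, ICAM1 and TNFAIP8 in each of the 10 libraries, 1 panel a gene, with groups in the order sgERH IL-1β, sgERH NT, sgAAVS1 IL-1β, sgAAVS1 NT; point shapes give the replicate number and a line the group mean. In 6 of the panels the guides are farther apart in NT than under IL-1β, with sgERH NT above sgAAVS1 NT; in the TNFAIP8 panel sgERH NT is below sgAAVS1 NT.

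NF-κB subunits showed a negative difference in the genes for both precursor subunits. NFKB1 (p105 and p50) had 134, 99.9 and 124 CPM in sgERH IL-1β and 62.3, 73.5 and 82.5 CPM in sgERH NT libraries, against 176 and 172 CPM in sgAAVS1 IL-1β and 56.9 and 62.7 CPM in sgAAVS1 NT libraries. Under IL-1β all sgERH libraries lay below both sgAAVS1 libraries, and in NT the guides overlapped. NFKB1 rose in sgAAVS1 (1.54 ± 0.15), its response in sgERH was 0.71 ± 0.12, and the guide difference was -0.83 ± 0.19 (edgeR unadjusted p = 1.98e-04, adjusted p = 0.216). NFKB2 (p100 and p52) had 84.6, 96.1 and 73.0 CPM in sgERH IL-1β and 45.4, 47.9 and 46.6 CPM in sgERH NT libraries, against 92.0 and 109 CPM in sgAAVS1 IL-1β and 33.0 and 29.7 CPM in sgAAVS1 NT libraries. The NT libraries of the guides did not overlap, with sgERH the higher, whereas under IL-1β they did. Its guide difference was -0.83 ± 0.20 (edgeR adjusted p = 0.264). Without sgERH IL-1β replicate 2 it was -0.93 (edgeR adjusted p = 0.0364), short of the fold needed for a call. That of NFKB1 was then -0.72 (edgeR adjusted p = 0.0720). The other subunits had smaller values, -0.34 ± 0.18 for RELB, -0.11 ± 0.31 for REL and 0.20 ± 0.16 for RELA, and REL rose in both guides. Of the 5 subunits 4 lay below 0 and 2 of these, NFKB1 and NFKB2, had an unadjusted p under 0.05.

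Among survival and TRAF genes, BIRC3 and TRAF1 had the lowest guide differences. BIRC3 encodes cIAP2, a ubiquitin ligase that protects cells from death by TNF. It had 48.8, 27.8 and 50.4 CPM in sgERH IL-1β and 10.4, 11.5 and 12.2 CPM in sgERH NT libraries, against 44.6 and 32.4 CPM in sgAAVS1 IL-1β and 4.41 and 1.99 CPM in sgAAVS1 NT libraries. The guides overlapped under IL-1β and were separate in NT. BIRC3 rose by 1.89 ± 0.23 in sgERH and 3.61 ± 0.38 in sgAAVS1, with a guide difference of -1.72 ± 0.45 (edgeR adjusted p = 0.288). TRAF1, an adaptor of TNF receptors, had 36.4, 32.8 and 26.1 CPM in sgERH IL-1β and 7.83, 6.85 and 9.01 CPM in sgERH NT libraries, against 27.0 and 20.9 CPM in sgAAVS1 IL-1β and 2.94 and 1.09 CPM in sgAAVS1 NT libraries. As for BIRC3, the separation was in NT, where sgERH was the higher. TRAF1 rose by 2.00 ± 0.23 in sgERH and 3.60 ± 0.41 in sgAAVS1, with a guide difference of -1.59 ± 0.47 (edgeR adjusted p = 0.295).

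TNFAIP2, a TNF-inducible gene, rose in both guides and had a guide difference of -1.01 ± 0.33 (edgeR adjusted p = 0.322). SOD2, the mitochondrial superoxide dismutase, had one of -0.36 ± 0.21, and 22.7% of its reads were multimapping. In the whole list of 19 genes, 11 lay below 0 (49.0% of all genes), and the median was -0.07. At an unadjusted p under 0.05, 3 members were negative (5.31% of all genes) and 1 positive (5.81% of all genes). The positive member was the death receptor gene FAS, with 19.1, 17.7 and 21.1 CPM in sgERH IL-1β and 10.3, 11.4 and 9.01 CPM in sgERH NT libraries, against 8.07 and 11.9 CPM in sgAAVS1 IL-1β and 12.8 and 9.25 CPM in sgAAVS1 NT libraries. Only the sgERH IL-1β libraries stood above the others, and the guide difference of FAS was 1.06 ± 0.34 (edgeR adjusted p = 0.322).

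Of the 6 tested chemokines 4 rose with IL-1β in each guide, and their guide differences had wide errors, with few reads in sgAAVS1 NT libraries. CXCL1, a ligand that attracts neutrophils, had 39.4, 35.1 and 55.6 CPM in sgERH IL-1β and 2.78, 1.80 and 1.53 CPM in sgERH NT libraries, against 26.8 and 29.1 CPM in sgAAVS1 IL-1β and 0.420 and 0.363 CPM in sgAAVS1 NT libraries. In both treatments all sgERH libraries were above all sgAAVS1 libraries. CXCL1 rose by 4.40 ± 0.32 in sgERH and 6.08 ± 0.78 in sgAAVS1, and the guide difference was -1.69 ± 0.85 (edgeR unadjusted p = 0.0286, adjusted p = 0.408). On the linear scale the sign was the opposite: CXCL1 gained 41.3 CPM with IL-1β in sgERH and 27.6 CPM in sgAAVS1. CXCL3, CXCL8 and CXCL2 also rose in both guides, with guide differences of -0.53 ± 0.54, -1.12 ± 0.78 and -1.86 ± 1.92. Their gains were likewise larger in sgERH on the linear scale, as for CXCL3 with 31.8 CPM in sgERH and 16.9 CPM in sgAAVS1. CCL20, a ligand of CCR6, had 0.531, 1.33 and 2.81 CPM in sgERH IL-1β and 0.174, 0.180 and 0.170 CPM in sgERH NT libraries, against 1.21 and 3.49 CPM in sgAAVS1 IL-1β libraries and no read in sgAAVS1 NT libraries. With its sgAAVS1 NT reads set at a floor of 3 for the group, its level was at least 8.04-fold higher with IL-1β in sgAAVS1, and no guide difference is given. The 5 chemokines with reads in every group lay below 0, with a median of -1.12 (-0.93 without sgERH IL-1β replicate 2) and 1 unadjusted p under 0.05.

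Cytokines and growth factors lay on both sides of 0. CSF3, which encodes G-CSF, had 11.0, 12.6 and 9.30 CPM in sgERH IL-1β libraries, against 1.21 and 2.26 CPM in sgAAVS1 IL-1β libraries, and no read in any NT library of either guide. Its level was at least 62.7-fold higher with IL-1β in sgERH and at least 5.94-fold higher in sgAAVS1 (same floor), so both responses are lower bounds and their difference cannot be given. Under IL-1β alone CSF3 was higher in sgERH than in sgAAVS1 by 2.64 ± 0.53 on the log2 scale (edgeR adjusted p = 6.29e-04). CSF1, which encodes M-CSF, and LIF had differences of 0.23 ± 0.57 and -0.62 ± 0.95. Of the 9 tested members, 8 had reads in every group, of which 4 lay below 0 with a median of 0.06. Without sgERH IL-1β replicate 2 these were 5 with a median of -0.04, and none had an unadjusted p under 0.05 in the 10 libraries.

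Among receptors and adhesion molecules ICAM1, which binds leukocyte integrins, had the lowest p. It had 182, 229 and 165 CPM in sgERH IL-1β and 45.2, 52.1 and 46.3 CPM in sgERH NT libraries, against 153 and 176 CPM in sgAAVS1 IL-1β and 23.7 and 21.0 CPM in sgAAVS1 NT libraries. The sgERH NT libraries were all above the sgAAVS1 NT libraries, and under IL-1β the guides overlapped, with sgERH replicate 2 as the highest. ICAM1 rose by 2.00 ± 0.12 in sgERH and 2.88 ± 0.16 in sgAAVS1, and the guide difference was -0.88 ± 0.20 (edgeR unadjusted p = 1.14e-04, adjusted p = 0.204). The gains on the linear scale were close to each other, 144 CPM in sgERH and 142 CPM in sgAAVS1. CD83, an activation marker of dendritic cells that epithelial cells can also express, rose in both guides with a difference of 0.13 ± 0.34. Of the 15 tested members 14 lay below 0, with a median of -0.35 (-0.20 without sgERH IL-1β replicate 2), and 5 had an unadjusted p under 0.05, all negative.

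**Figure D3:**
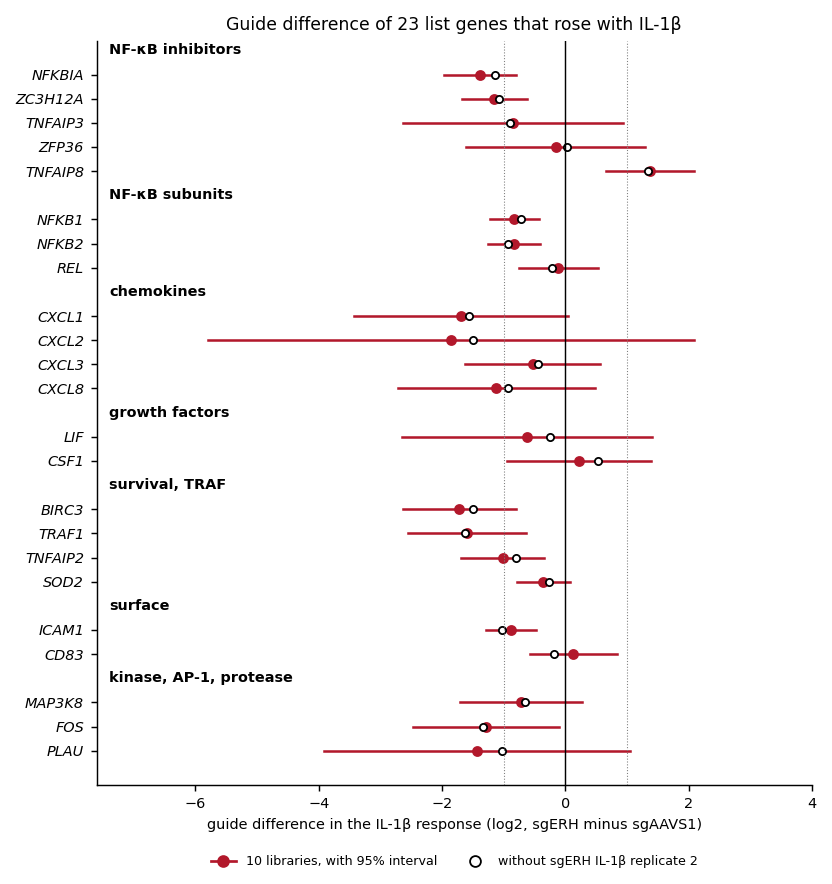
Guide difference in the IL-1β response (x axis, log2, sgERH minus sgAAVS1) of 23 list genes that rose with IL-1β, grouped by role; filled points with bars show the estimate and its 95% interval from all 10 libraries, and open points the estimate without sgERH IL-1β replicate 2. Intervals wholly below 0 include those of NFKBIA, ZC3H12A, NFKB1, NFKB2, BIRC3, TRAF1, TNFAIP2 and ICAM1, and that of TNFAIP8 is wholly above 0.

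The signalling components that carry the IL-1 signal lay on both sides of 0, and their balance changed with 1 library. IL1R1, the receptor, was near the limit of detection and was not tested: it had 1, 4 and 2 reads in sgERH IL-1β and 5, 1 and 1 reads in sgERH NT libraries, against 4 and 4 reads in sgAAVS1 IL-1β and 2 and 0 reads in sgAAVS1 NT libraries. MYD88 had a difference of -0.56 ± 0.36. Of the 24 tested members 11 lay below 0 with a median of 0.04, and without sgERH IL-1β replicate 2 these were 16 with a median of -0.10. Those with a negative difference at an unadjusted p under 0.05 (5.31% of all genes) were TRAF6 (-1.15 ± 0.44), the TAK1 partner TAB2 (-0.87 ± 0.31), TAK1 itself (MAP3K7, -0.56 ± 0.20) and the IκB kinase gene CHUK (-1.39 ± 0.51), with edgeR adjusted p-values of 0.350 to 0.369. A positive difference at the same unadjusted p was found for 2 members (5.81% of all genes). For CHUK the sgERH libraries were split by replicate, 13.3, 5.15 and 15.1 CPM with IL-1β and 17.7, 8.11 and 15.3 CPM in NT, against 12.1 and 18.5 CPM in sgAAVS1 IL-1β and 7.35 and 6.89 CPM in sgAAVS1 NT libraries. MAP3K8, a kinase that links the IκB kinases to ERK, was the member that rose in the pooled response, and its guide difference was -0.72 ± 0.48.

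Of the 25 tested AP-1 and immediate-early factors 1 rose in the pooled response, and of the 12 tested matrix protease genes 1 did (0.486% of all genes). FOS rose in the pooled response with a difference of -1.29 ± 0.58 (edgeR adjusted p = 0.410), and the urokinase gene PLAU did with -1.43 ± 1.21. Of the 9 tested MAP kinase phosphatases 7 lay below 0, with a median of -0.39 and 3 negative members at an unadjusted p under 0.05, although none of them rose in the pooled response. One of these was DUSP6, an ERK phosphatase, with 336, 193 and 379 CPM in sgERH IL-1β and 333, 285 and 341 CPM in sgERH NT libraries, against 448 and 457 CPM in sgAAVS1 IL-1β and 265 and 267 CPM in sgAAVS1 NT libraries. Its sgAAVS1 libraries were above the sgERH libraries with IL-1β and below them in NT, and the guide difference was -0.85 ± 0.28 (edgeR adjusted p = 0.349). Of the 10 tested acute-phase and inflammatory enzyme genes 8 lay below 0 (median -0.41), and of the 25 AP-1 and immediate-early factors 17 did (median -0.05). The mRNA decay regulators (14 of 22 below 0, median -0.16) and the matrix protease genes (5 of 12 below 0, median 0.16) completed the 12 lists. In all 12 lists together 170 of 252 members were tested and 109 lay below 0 (108 of the 168 with reads in every group), against 49.0% of all genes. At an unadjusted p under 0.05, 27 members were negative (5.31% of all genes) and 10 positive (5.81% of all genes). The same shares stand beside the counts of each single list. The median was -0.16 (-0.11 without sgERH IL-1β replicate 2). The 82 members that did not pass the filter had at most 72 reads over the 10 libraries, and 43 had none.

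Among the 40 responsive genes outside the lists, a few are named here that were chosen after their values were seen. G0S2, an inhibitor of triglyceride breakdown, had 401, 257 and 587 CPM in sgERH IL-1β and 270, 167 and 268 CPM in sgERH NT libraries, against 728 and 783 CPM in sgAAVS1 IL-1β and 190 and 240 CPM in sgAAVS1 NT libraries. Its sgERH IL-1β libraries were spread widely and all lay below the sgAAVS1 IL-1β libraries, and the guide difference was -0.99 ± 0.47 (edgeR unadjusted p = 0.0627). The transcription factor gene POU2F2 (OCT2) had one of -1.34 ± 0.54. NINJ1, which acts in plasma membrane rupture, and AMPD3, an AMP deaminase gene, rose in both guides, with differences of -0.27 ± 0.22 and 0.03 ± 0.34. Of the 65 genes, 8 had more than 20% multimapping reads, and 1 pair of symbols, AC068205.3 and RPL23AP63, had identical values and so counts 1 signal as 2.

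A difference of responses can come from either end, so the comparison of the guides was read separately in NT cells and under IL-1β. In NT cells the 65 genes had a median of 0.79 for sgERH over sgAAVS1 on the log2 scale, against 0.04 over all genes, and 58 of the 65 were above 0, against 52.7% of all genes. Of the 65, 14 were higher in sgERH NT by the test (5.95% of all genes) and 1, TNFAIP8, was lower (2.30% of all genes). Under IL-1β the median was -0.06 (0.08 over 64 genes without sgERH IL-1β replicate 2). Of the 65, 29 were above 0, against 51.9% of all genes, and 5 were higher (5.68% of all genes) and 2 lower (2.80% of all genes) by the test. By library, all sgERH NT values lay above all sgAAVS1 NT values for 35 of the 65 genes (27.6% of all genes) and below them for 4 (26.6% of all genes). Under IL-1β the sgERH values lay above for 16 (25.6% of all genes) and below for 10 (24.2% of all genes). These guide comparisons share the libraries of the guide difference and are its parts, not further evidence for it.

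**Figure D4:**
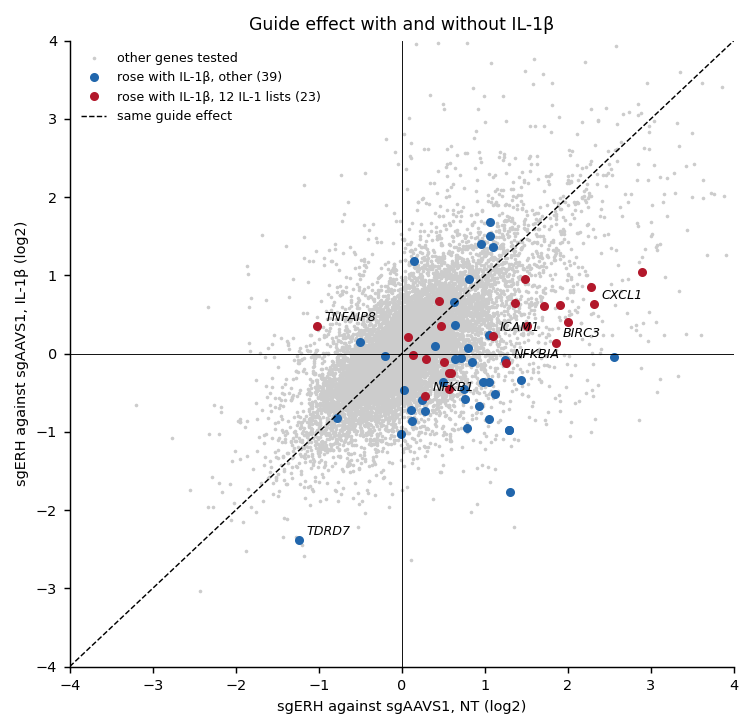
Guide effect (log2, sgERH over sgAAVS1) in NT cells (x axis) and under IL-1β (y axis) for the responsive genes, with a dashed line where both are equal and the guide difference is 0. Points lie mostly to the right of 0 and below the line; NFKBIA, ICAM1, TRAF1 and BIRC3 have positive values in NT and values of 0.41 or less under IL-1β.

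Genes differed in which end moved. For NFKBIA the guide effect was 1.26 in NT (edgeR adjusted p = 2.87e-04, higher in sgERH) and -0.12 under IL-1β (edgeR adjusted p = 0.667). ZC3H12A, ICAM1, TRAF1 and BIRC3 had the same form, with NT guide effects of 1.51, 1.10, 2.00 and 1.86, each passing the test, and effects of 0.36, 0.22, 0.41 and 0.14 under IL-1β that did not. NFKB1 had the other form, with 0.28 in NT and -0.55 under IL-1β. Its value under IL-1β had an edgeR adjusted p of 0.00268 but did not reach the fold needed for a call. Because the guides began at different levels, the sign of the difference depended on the scale for some genes. In CPM, the gain with IL-1β was larger in sgERH for 25 of the 65 genes (52.4% of all genes), 12 of which were below 0 on the log2 scale, CXCL1, CXCL8, ICAM1 and TRAF1 among them. These counts rest on the sign of the estimate alone. The difference in CPM (± SE) was 13.8 ± 6.36 for CXCL1 and 6.30 ± 4.96 for CXCL8. For ICAM1 (1.61 ± 22.6) and TRAF1 (1.93 ± 4.44) it was small beside its error. For 40 genes the difference was below 0 on both scales, and for 13 above 0 on both. NFKBIA and NFKB1 were below 0 on both: NFKBIA gained 133 CPM in sgERH and 204 CPM in sgAAVS1, and NFKB1 gained 46.4 CPM in sgERH and 114 CPM in sgAAVS1. The difference in CPM (± SE) was -71.5 ± 41.8 for NFKBIA and -68.0 ± 12.2 for NFKB1. For NFKBIA, sgERH IL-1β replicate 2 had 138 CPM, against 263 and 262 CPM in the other libraries of its group. Its difference in CPM is not given without that library.

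Outside the IL-1 lists, the genes of lowest p were mixed in function. CPVL had the lowest p of the genes named here, with 4.07, 2.10 and 4.21 CPM in sgERH IL-1β and 8.53, 6.31 and 8.16 CPM in sgERH NT libraries, against 9.69 and 9.02 CPM in sgAAVS1 IL-1β and 4.62 and 3.26 CPM in sgAAVS1 NT libraries. The libraries of the guides were separate in both treatments, with sgERH lower under IL-1β and higher in NT, and the difference was -2.39 ± 0.47 (edgeR adjusted p = 0.204). MRPL39, a mitochondrial ribosomal protein gene, rose in sgAAVS1 (3.43 ± 0.59) with a response of 0.36 ± 0.41 in sgERH, and its difference was -3.08 ± 0.72. NFU1, which assembles iron-sulfur clusters, had -0.90 ± 0.20 and ZNF696 -1.52 ± 0.33. LINC02085 and AC106712.1 had like values in every library, with differences of -1.41 ± 0.32 and -1.40 ± 0.32, and both rose in sgAAVS1. The lowest edgeR adjusted p among these genes was also 0.204.

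In the positive direction, SESN2 (sestrin 2, a stress-inducible regulator of mTORC1) had 229, 250 and 184 CPM in sgERH IL-1β and 165, 163 and 190 CPM in sgERH NT libraries, against 75.3 and 66.2 CPM in sgAAVS1 IL-1β and 99.5 and 92.3 CPM in sgAAVS1 NT libraries. The guides were separate in both treatments, with sgERH higher, and the difference was 0.79 ± 0.18 (edgeR adjusted p = 0.204). HIC1, a transcriptional repressor gene, fell in sgAAVS1 (-1.14 ± 0.27) with a response of 0.31 ± 0.21 in sgERH, and its difference was 1.46 ± 0.34. TNKS1BP1, the cell cycle factor gene MYBL2 and SH3BP5L had differences of 0.92 ± 0.22, 0.91 ± 0.21 and 0.73 ± 0.17, with edgeR adjusted p-values of 0.216 each. None of these positive genes rose in the pooled response.

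**Figure D5:**
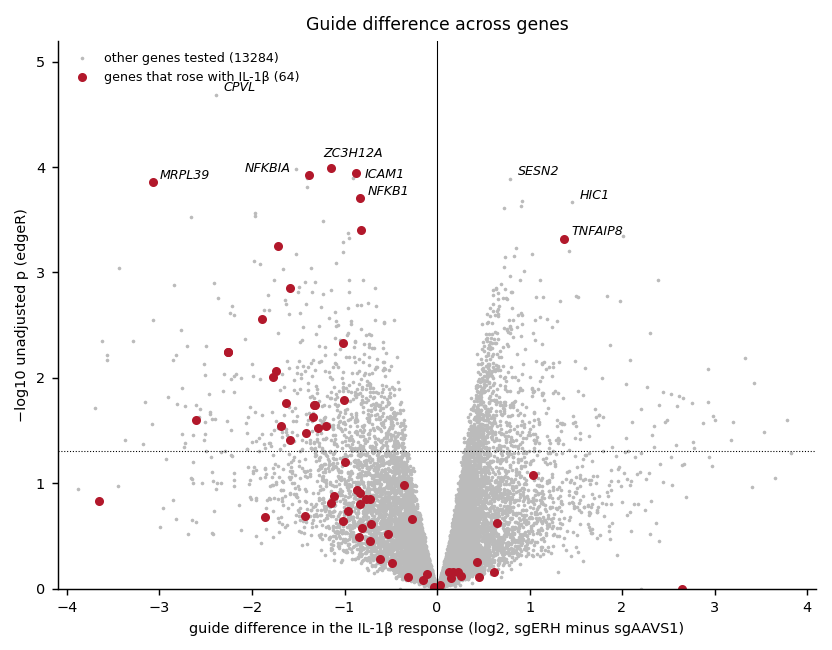
Guide difference in the IL-1β response (x axis, log2, sgERH minus sgAAVS1) against −log10 of the unadjusted p (y axis) for 64 of the genes that rose with IL-1β and 13284 other genes, with a dotted line at an unadjusted p of 0.05; 22 genes beyond 4 on the x axis are not drawn. The responsive genes lie mostly left of 0, and no gene passed the adjusted test.

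The guide difference was also compared between cytokines, as the guide effect under IL-1β minus the guide effect under IFNγ (25 ng/mL for 4 h, 2 sgERH and 3 sgAAVS1 libraries). The NT libraries are the same for both cytokines and cancel. This comparison called 23 gene symbols, 22 higher (0.165% of all genes) and 1 lower (0.00748%), by edgeR. The lower one was NFKBIA, with a difference of -1.38 ± 0.27 (edgeR adjusted p = 0.0492), close to the threshold. Its call depended on the setting. No gene was called lower with only the groups compared, all 18 libraries or uniquely mapped reads. The same held without sgAAVS1 IFNγ replicate 1 or 3, sgERH IFNγ replicate 1 or 3, or sgAAVS1 IL-1β replicate 1 or 2. At least 1 gene was called lower with DESeq2, its size factors, no filter or a replicate block. So it was without sgAAVS1 IFNγ replicate 2 or without any 1 of the sgERH IL-1β libraries. NFKBIA had 263, 138 and 262 CPM in sgERH IL-1β libraries against 236 and 247 CPM in sgAAVS1 IL-1β libraries, and 96.6 and 100 CPM in sgERH IFNγ libraries against 38.4, 39.0 and 46.5 CPM in sgAAVS1 IFNγ libraries. The guides were thus separate under IFNγ and overlapped under IL-1β. Among the 22 were genes of the IFNγ response such as the transcription factor gene IRF1 (3.58 ± 0.17), and WARS and WARS1 are 2 symbols of 1 gene. IRF1 had 52.9, 52.0 and 50.9 CPM in sgERH IL-1β libraries against 27.7 and 33.2 CPM in sgAAVS1 IL-1β libraries, and 118 and 118 CPM in sgERH IFNγ libraries against 897, 773 and 805 CPM in sgAAVS1 IFNγ libraries. The sgERH libraries were higher under IL-1β and far lower under IFNγ. ICAM1 was also among the 22, with a difference of 1.91 ± 0.18 (edgeR adjusted p = 2.12e-07). Over the 65 IL-1β-responsive genes the median of the comparison was -0.77 (-0.68 over 64 of them without sgERH IL-1β replicate 2), against -0.0047 over all genes. Of the 65, 54 were below 0, against 50.5% of all genes. The 65 genes were chosen in the same IL-1β libraries that enter this comparison. The median is therefore not independent of that choice or of the guide difference, and is no further evidence for it.

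ERH itself was read at its 3′ end. The Cas9 cut was not located here, so the level is given without being taken as a check of the edit. It had 340, 253 and 279 CPM in sgERH IL-1β and 323, 264 and 308 CPM in sgERH NT libraries, against 537 and 615 CPM in sgAAVS1 IL-1β and 629 and 643 CPM in sgAAVS1 NT libraries. All sgERH libraries were below all sgAAVS1 libraries, with a guide effect of -1.09 ± 0.12 on the log2 scale in NT (edgeR adjusted p = 8.03e-08), and the guide difference in the response was 0.10 ± 0.17. JAK2, the kinase of the IFNγ receptor that the study followed, had 43.3, 56.4 and 56.1 CPM in sgERH IL-1β and 37.9, 27.8 and 36.6 CPM in sgERH NT libraries, against 38.8 and 49.0 CPM in sgAAVS1 IL-1β and 44.1 and 54.9 CPM in sgAAVS1 NT libraries. In NT its sgERH libraries lay below the sgAAVS1 libraries, and under IL-1β the guides overlapped. The guide difference of JAK2 was 0.78 ± 0.24 (edgeR unadjusted p = 0.00331, adjusted p = 0.303).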

How the data were processed

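The 18 RKO-iCas9 libraries (2 guides, 3 treatments) were made with QuantSeq 3′ FWD. The submitters' processing notes name FastQC 0.11.8 and Trim Galore 0.6.2. Reads were mapped by the authors with SlamDunk on GRCh38, and those in 3′ end windows defined by 3-GAmES were summed per gene, multimapping reads included. The deposited table holds read counts, whole numbers without normalization, for 39859 gene symbols. Genes that share sequence with other loci have uncertain counts. The authors' CPM and conversion columns were not used.

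Counts of the 15 libraries that the study kept (6 groups) were fitted in 1 model with edgeR 4.0.16 in R 4.3.3 (TMM, filterByExpr, robust quasi-likelihood F test, biological coefficient of variation 12.6%), and p-values were adjusted by Benjamini-Hochberg over 13370 genes. Standard errors and 95% intervals are Wald values from the coefficients of that model and can differ from its F test at low counts, as for CXCL1. The words rose and fell are kept for genes with an adjusted p up to 0.05 and a log2 fold change of 1 or more in either direction. CPM are counts over the TMM-scaled library size. Differences in CPM and motif counts carry no test, and the SE of a difference in CPM combines the SDs of the groups. With no molecular identifiers stated, the floor of 3 reads covers counting error only. Gene positions are from GENCODE 44, where 11930 of the tested symbols were found, and promoters from RefSeq.

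Named genes were the members of the 12 IL-1 lists that rose in the pooled response, the 10 of lowest p in each direction with under 20% multimapping reads and a mean of at least 5 CPM, the 5 highest and 5 lowest called genes of the cytokine comparison, and 12 fixed genes. A gene that this rule names is not reported here. Not all of the lowest-p genes are described. Outside this rule, the list members NFKBIE, FAS, DUSP6, TRAF6, TAB2, MAP3K7 and CHUK were named for their unadjusted p, after their values were seen. The genes, the lists and the comparison were chosen with earlier results of these data known. Alternatives were DESeq2 1.42.0, its size factors, no filter, only the groups compared, all 18 libraries, a replicate block, uniquely mapped reads, each library left out, CPM in place of log2, another choice of genes and another motif. Scripts were tested on simulated data.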

Additional observations from a re-analysis of the deposited data

Results flagged for a closer look

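For 6 named genes the guide effect differed between the cytokines by edgeR's test of that difference (IL-1β minus IFNγ, log2). NFKBIA had -1.38 (edgeR adjusted p = 0.0492), with 263, 138 and 262 CPM in sgERH IL-1β libraries against 236 and 247 CPM in sgAAVS1 IL-1β libraries, and a higher level in sgERH than in sgAAVS1 under IFNγ. Its call was lost with only the groups compared, with all 18 libraries and with uniquely mapped reads. It was also lost without sgAAVS1 IFNγ replicate 1 or 3, sgERH IFNγ replicate 1 or 3, or sgAAVS1 IL-1β replicate 1 or 2. The adhesion molecule gene ICAM1 had 1.91 (adjusted p = 2.12e-07). The other genes are known from the IFNγ response: IRF1 had 3.58 (adjusted p = 4.27e-14), the ubiquitin ligase gene DTX3L 2.21 (9.70e-07), APOL2 2.14 (1.83e-06) and NLRC5, the activator of class I antigen presentation genes, 2.08 (0.00274). NLRC5 had 6.90, 7.05 and 7.72 CPM in sgERH IL-1β libraries against 6.06 and 6.15 CPM in sgAAVS1 IL-1β libraries, and 14.4 and 22.0 CPM in sgERH IFNγ libraries against 59.8, 68.9 and 67.2 CPM in sgAAVS1 IFNγ libraries. Its guides were close under IL-1β and wide apart under IFNγ. APOL2, an apolipoprotein L gene, and DTX3L were higher in sgERH under IL-1β and lower under IFNγ, as in APOL2 with 40.2, 42.7 and 36.7 CPM in sgERH IL-1β against 16.3 and 13.3 CPM in sgAAVS1 IL-1β libraries, and 50.7 and 51.8 CPM in sgERH IFNγ against 73.6, 90.5 and 89.1 CPM in sgAAVS1 IFNγ libraries.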

How the results depend on the processing

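The count of genes called for the guide difference, 0, was 70 with no filter on low counts, 2 with DESeq2 and 0 to 140 when 1 library was left out (5 without sgERH IL-1β replicate 2, 140 without replicate 3, 0 without any other). The 65 genes of the pooled response became 103 with no filter, 15 with all 18 libraries and 32 to 137 with 1 library left out: 32 without sgAAVS1 IL-1β replicate 2, 38 without sgERH NT replicate 2, 43 without sgAAVS1 NT replicate 2 and 137 without sgERH IL-1β replicate 2. The 23 of the cytokine comparison became 2 with all 18 libraries, 15 with uniquely mapped reads and 11 to 62 with 1 library left out, with 11 without sgAAVS1 IL-1β replicate 1, 12 without sgERH IFNγ replicate 3, 13 without its replicate 1, 14 without sgAAVS1 IL-1β replicate 2 and 62 without sgERH IL-1β replicate 3. The causes were not tested. The median over those of the 65 genes with a value was below 0 under every alternative run (-0.77 to -1.21 with 1 library left out) except for genes chosen in sgERH, 0.24. With genes at 0 reads removed, an alternative chosen after seeing the data, it was -0.86. A further choice without sgERH IL-1β replicate 2, also made after seeing the data, weighted the guides equally. It gave 174 genes, 63 of them shared with the 65, and is not the choice that gave 137 above. Their median was -0.93, with 158 below 0. They were chosen and read in the same libraries, and the larger sgAAVS1 weight favours genes with a large sgAAVS1 response. The share below 0 thus depends on the choice and is no further evidence for the guide difference. The looser motif GGNNNTTCC was found in 20 promoters (43.5%, against 23.5% of tested genes).

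The deviations of same-numbered libraries correlated at -0.08 to 0.11 over 10453 genes, not all over 0.1, so a shared number was not taken to pair them; with a replicate block 0 genes were called for the guide difference, 85 in the pooled response and 24 in the cytokine comparison, and the median over the 65 genes was -1.11.

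Of the alternatives for single named genes 748 kept the direction and the side of the threshold, 33 passed it newly (14 of them without sgERH IL-1β replicate 3) and 16 turned the sign. With all 18 libraries NFKB2 was 0.32, REL 0.97, ZFP36 0.40, DTX3L -0.20, APOL2 0.13 and ERH -0.56. With 1 library left out the lowest and highest values were -0.55 and 0.36 for ZFP36 (0.36 without sgAAVS1 IL-1β replicate 2), -0.19 and 0.30 for CD83, -0.0029 and 0.54 for CSF1, -1.82 and 0.072 for CXCL3, -0.21 and 0.045 for REL, -0.15 and 0.32 for DTX3L and -0.023 and 0.20 for ERH. In CPM the difference turned positive for CXCL1 (13.8), CXCL2 (3.29), CXCL3 (14.9), CXCL8 (6.30), ICAM1 (1.61), MAP3K8 (0.0516), PLAU (1.00), REL (2.27), TRAF1 (1.93) and APOL2 (1.09). For CXCL2, ICAM1, MAP3K8, PLAU, REL, TRAF1 and APOL2 it was smaller than its SE.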

Other observations

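Some gene groups had members that differed between the guides at both treatments. Of 30 mitosis genes, 21 were lower in sgERH under IL-1β (2.80% of all genes) and 21 in NT (2.30% of all genes), and the summed list had 1344 to 1405 CPM in sgERH IL-1β and 1428 to 1470 CPM in sgERH NT libraries, against 2619 to 2670 CPM in sgAAVS1 IL-1β and 2816 to 2873 CPM in sgAAVS1 NT libraries. The median guide difference in the response was -0.02 over the mitosis genes (15 of 30 below 0) and 0.01 over 32 DNA replication genes (16 below 0). Of 24 tested p53 targets, 11 were higher in sgERH under IL-1β (5.68% of all genes) and 7 in NT (5.95% of all genes), and their median guide difference was 0.15 with 17 above 0 and 7 below. The median was 0.04 over 18 genes of the ATF4 stress response, 0.01 over 29 tested IFNγ response genes and -0.07 over 16 housekeeping genes.

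Several IL-1 list members that did not pass the filter had most of their reads in sgERH IL-1β libraries. The prostaglandin synthase gene PTGS2 (COX-2) had 16 reads over the sgERH IL-1β and 3 over the sgERH NT libraries, against 0 over the sgAAVS1 IL-1β and 0 over the sgAAVS1 NT libraries. TNIP3, an A20-binding inhibitor gene, had 26 and 3 reads in sgERH IL-1β and NT, against 1 and 1 in sgAAVS1 IL-1β and NT, and EBI3 had 30 and 7 reads against 6 and 1. The sums run over 3 sgERH but only 2 sgAAVS1 libraries in each treatment. These genes were chosen from the 82 untested members after their values were seen and carry no test. Others differed: PELI2 had 10 and 25 reads in sgERH IL-1β and NT, against 4 and 2 in sgAAVS1 IL-1β and NT. F3 had 23 and 24 reads against 20 and 5.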
